A study of Mus musculus with 55 samples.

Results

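The genes described here are 198 of 10237 genes whose pre-mRNA was lower with IAA than without it in every one of 11 paired comparisons of CTCF-AID mouse embryonic stem (ES) cells. They were chosen on the measured values. In asynchronous cells and at 4 later time points (50, 60, 90 and 120 min after release from mitosis), log2(TPM + 1) of the +IAA library minus that of the −IAA library of the same replicate had to be negative in all 11 pairs, with a mean of -0.2 or less. TPM stand for the share of a gene's transcripts in a library, per gene length, but the deposited values come in steps that differ between libraries, which the methods do not account for. This rule takes 1.93% of the listed genes, and what it used is given below as a description, without a test. The mitotic, 20 min and 40 min pairs (7 pairs, 14 libraries) took no part in the choice.

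The study followed transcription as ES cells left mitosis, and asked which genes need CTCF for it. CTCF is a zinc finger protein that binds a GC-rich motif, halts cohesin and thereby anchors chromatin loops and domain borders. It also binds close to many promoters. In ES cells it is known to stay on a part of its sites on mitotic chromosomes, when most transcription stops. Pre-mRNA still holds its introns and is soon spliced, so its level follows ongoing transcription more closely than that of mRNA.

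CTCF-AID is a single clone of E14Tg2a cells in which CTCF carries an auxin-inducible degron, a tag that leads to degradation of the protein once the auxin IAA is added. Cells were grown in serum and LIF. Mitotic cells came from 4 h in 10 µM RO-3306, a CDK1 inhibitor, then 4 h in 50 ng/ml nocodazole, which blocks the spindle, and shake-off, in both arms. IAA was used at 0.5 mM, for the last 2 h of nocodazole and on through the release, and for 4 h in asynchronous cells. Of the 36 CTCF-AID libraries 18 belong to each arm: 3 asynchronous, 3 mitotic and 2 for each of 20, 40, 50, 60, 90 and 120 min. CCNA-GFP, another E14Tg2a line with a cyclin A reporter and no IAA, was synchronised in the same way and holds 19 libraries: 3 asynchronous, 3 mitotic, 2 at each of 20, 30, 40, 60, 90 and 120 min, and 1 at 50 min.

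The paper shows the loss of CTCF protein after IAA by Western blot, in interphase and in mitosis. Ctcf, on chr8:105636568-105682922, does not check the depletion at the RNA level, because IAA removes the protein and not the RNA. In asynchronous cells its pre-mRNA was at 6.54, 6.10 and 9.13 TPM without IAA and at 7.52, 7.77 and 10.9 TPM with IAA. The ranges overlapped, and Ctcf was higher with IAA in all 3 asynchronous pairs and in 16 of the 18 pairs of all stages. All cells given IAA here carry the tag, so effects of IAA itself and of the loss of CTCF cannot be told apart. Of 10 ES cell markers 9 were listed. In asynchronous libraries their summed level was 75.1 to 148 TPM without IAA and 76.2 to 132 TPM with it. The marker lists of fibroblasts (2 of 7 listed), endoderm (0 of 5), mesoderm (3 of 4), neural cells (3 of 4) and trophoblast (2 of 4) each summed to at most 5.84 TPM in any asynchronous CTCF-AID library. Marker sums were not taken at the other stages. TPM keep no read counts, so depth is unknown. In bulk RNA, fewer cells that transcribe a gene and less RNA per cell cannot be told apart, and TPM are relative to the other genes of a library. Every value of a CTCF-AID library was a whole multiple (within 0.02) of 1 step, which ran from 0.0184 to 0.0280 TPM between libraries. Within a pair the +IAA step was 0.870 to 1.06 times the −IAA step, and this ratio enters each difference. Results with all libraries brought to the same step, a check chosen after seeing the data, are given for some measures only. These are the members' medians, the shares lower in all pairs of a set, the blocked calls, the rule and the CCNA-GFP fit.

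The sequence just upstream of the members is shown first, because it was not used to choose them. RefSeq promoters (GRCm38.p6, 250 bases before to 50 bases after the start) were found by symbol for 158 members and for 8277 listed genes, and both strands were searched for the core of the CTCF motif. The strict form has 12 positions, of which 8 are fixed and 4 allow a choice of 2 bases. It occurred in 19 members (12%), in 66 listed genes (0.797%) and in 0.557% of all 32851 promoters. The members thus made up 28.8% of the listed genes with the strict core. The 10 members lowest over the 11 pairs among those 19 are shown, each as 30 bases read along the gene's strand with the core in capitals.
Dennd6b (chr15:89196634-89196663, − strand): gccacactaGCCACCTACTGGccgacccgg
Slc35b2 (chr17:45563721-45563750, + strand): aatcctagtCCACTAGATGGCaatggtcat
Agfg1 (chr1:82839369-82839398, + strand): tcctcccggCCAGCAGAGGGCgccagcctg
Ndufaf4 (chr4:24898018-24898047, + strand): tcctcccggCCACCAGGGGGCgacgagcgc
Rint1 (chr5:23787618-23787647, + strand): gacatccaaCCAGCAGGGGGCgccacagaa
Fam133b (chr5:3543757-3543786, + strand): tcctccgcaCCACCAGGGGGCgccgtggcg
Gaa (chr11:119267927-119267956, + strand): cgccctcagCCACTAGGGGGCgcagcgata
Mgat5b (chr11:116918784-116918813, + strand): agactgcggCCACCAGATGGCgctcaggcg
Wdr41 (chr13:94976302-94976331, + strand): agcgcacgcCCACTAGGGGGCgcccgagcg
Entpd6 (chr2:150748936-150748965, + strand): agctccagaGCCCCCTACTGGcagaaagaa

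In Dennd6b and Entpd6 the core stood on the strand opposite to the gene, and its reverse complement is what the capitals show. In the 17 other members of the 19 it read along the gene. The centres of the 19 cores lay between -200 and -21 bp from the start, with a median of -76 bp, and all of them were upstream. Of 48 strict cores in the 47 other listed genes, 29 read along the gene and 19 against it.

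To show where the core stands, the 250 bases before the start are given for 3 of these members whose upstream window overlaps no annotated gene. They are Ndufaf4, an assembly factor of respiratory complex I, Rint1, which acts in traffic between the Golgi and the endoplasmic reticulum, and Fam133b, a gene of little known function.
Ndufaf4 (chr4:24897833-24898082, + strand): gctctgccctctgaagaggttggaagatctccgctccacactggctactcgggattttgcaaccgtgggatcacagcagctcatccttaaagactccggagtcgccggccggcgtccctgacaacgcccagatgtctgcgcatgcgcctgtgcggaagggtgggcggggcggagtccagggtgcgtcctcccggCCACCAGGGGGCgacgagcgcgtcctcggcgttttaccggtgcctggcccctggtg
Rint1 (chr5:23787461-23787710, + strand): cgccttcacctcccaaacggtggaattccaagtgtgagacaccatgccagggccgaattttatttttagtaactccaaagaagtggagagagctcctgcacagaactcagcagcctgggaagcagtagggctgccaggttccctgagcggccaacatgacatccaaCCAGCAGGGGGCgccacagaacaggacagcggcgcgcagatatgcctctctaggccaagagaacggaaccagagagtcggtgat
Fam133b (chr5:3543583-3543832, + strand): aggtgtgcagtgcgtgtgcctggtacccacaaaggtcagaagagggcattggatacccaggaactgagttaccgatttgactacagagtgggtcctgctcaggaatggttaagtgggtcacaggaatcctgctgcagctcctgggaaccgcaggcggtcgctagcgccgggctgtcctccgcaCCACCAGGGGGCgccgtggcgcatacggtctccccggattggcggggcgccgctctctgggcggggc

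The core ends 45, 73 and 56 bp before the start in these genes. A relaxed form of the core, CCNNNAGNNGGC, with 7 fixed and 5 free positions, contains every strict match. It occurred in 74 members (46.8%), in 1284 listed genes (15.5%) and in 8.61% of all promoters. Written backwards, which keeps the base composition, the strict form was in 0 members and in 6 listed genes (0.0725%), and the relaxed form in 12 members (7.59%) and 495 listed genes (5.98%). GC content of the promoters was close, with a median of 62.1% in the members and 61.3% in the listed genes. A match describes letters only and is not a bound site, and no binding data were used.

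The relaxed core was most frequent just upstream of the start. Its centre fell between -100 and -50 bp in 17.1% of the members (3.87% of listed genes), between -50 and 0 bp in 14.6% (3.48%) and between -150 and -100 bp in 10.8% (2.97%). Beyond -200 bp the shares were 0.633% and 1.80%.

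**Figure D1:**
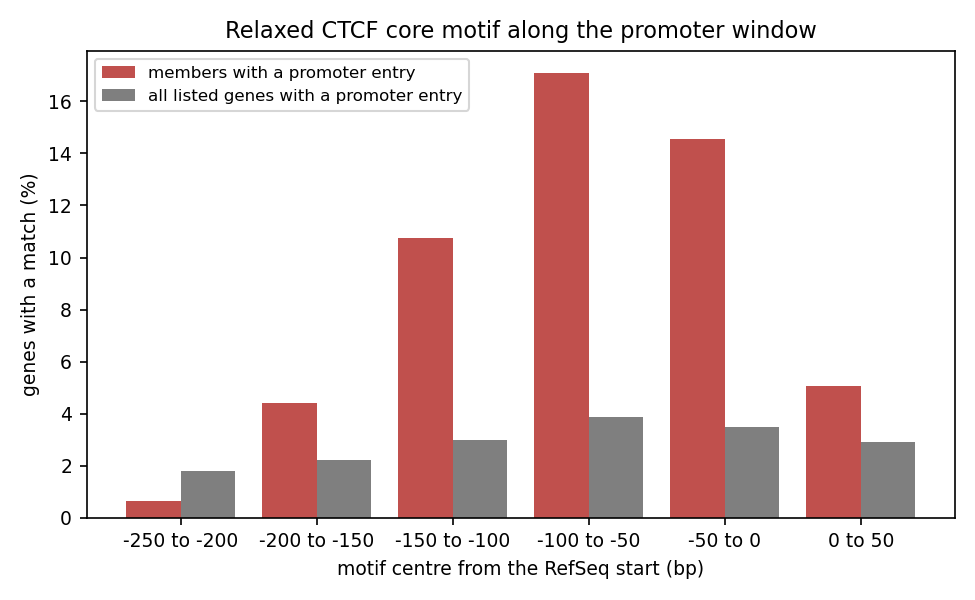
Share of genes (%, vertical axis) whose promoter holds the relaxed CTCF core, by the distance of its centre from the RefSeq start (bp, horizontal axis, bins of equal width). Red bars are the 158 members and grey bars the 8277 listed genes with a promoter entry; the members are highest between -100 and -50 bp, at 17.1% against 3.87%.

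Among all listed genes that hold the strict form, the IAA difference was set beside the strand of the core, with no test. Of 45 genes with the core along the gene, 17 were members (37.8%), and of 21 with the core against it 2 were (9.52%). In the 20 and 40 min pairs, which the rule did not use, the median difference was -0.12 for the former, with 45 of 45 below 0, and -0.04 for the latter, with 15 of 21 below 0. Over all listed genes the median was -0.05 there, and 86.0% were below 0. Within the members the core did not sort the genes by size, as the 19 with the strict form had a median of -0.17 at 20 and 40 min and the 139 without it -0.14.

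The 12 members lowest over the 11 pairs each stood below 50% of their −IAA mean in asynchronous cells. Nle1 (ENSMUSG00000020692, chr11:82900768-82908411), which acts in the maturation of the large ribosomal subunit, had the lowest mean over the 11 pairs, -1.26. Its pre-mRNA was at 4.35, 4.21 and 5.40 TPM in asynchronous −IAA libraries and at 1.04, 1.00 and 1.12 TPM in +IAA libraries, 22.7% of the −IAA mean. In mitotic cells, −IAA libraries held 4.85, 3.71 and 4.89 TPM and +IAA libraries 4.05, 3.41 and 4.28 TPM. The arms overlapped in mitotic cells and stood far apart in asynchronous cells.

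The course of Nle1 after release is given by stage, with overlap read over whole arms and not within pairs. Within pairs Nle1 was lower with IAA in all 3 mitotic pairs and in all 4 pairs of 20 and 40 min. At 20 min the values were 4.82 and 3.47 TPM without and 4.56 and 3.16 TPM with IAA, and the arms overlapped. At 40 min they were 5.10 and 4.17 against 3.38 and 2.43 TPM, and at 60 min 8.03 and 6.60 against 2.88 and 2.56 TPM, without overlap. At 20, 40, 60 and 90 min, the +IAA mean was thus 93.1%, 62.6%, 37.2% and 32.6% of the −IAA mean. Between mitosis (n = 3) and 90 min (n = 2), the −IAA level went from 4.48 ± 0.67 up to 7.92 ± 1.6 TPM and the +IAA level from 3.91 ± 0.45 down to 2.58 ± 0.12 TPM (mean ± SD).

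Tex261 (ENSMUSG00000014748, chr6:83768885-83775813), a membrane protein linked to vesicle export from the endoplasmic reticulum, followed with a mean of -1.09. Asynchronous libraries held 1.75, 1.09 and 1.66 TPM without and 0.394, 0.328 and 0.313 TPM with IAA, 23.0% of the −IAA mean. At 40 min the values were 2.77 and 1.45 against 1.49 and 0.994 TPM, so that the lower −IAA library lay below the higher +IAA library. Within pairs Tex261 was lower each time, and the blocked fit called it at 40 min (-0.45, limma adjusted p = 0.0944). At 60 min the arms no longer overlapped, at 5.40 and 3.41 against 1.34 and 1.33 TPM.

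Csnk2a2 (ENSMUSG00000046707, chr8:95446096-95490039), a catalytic subunit of casein kinase 2, had a mean of -1.0 and was the third and last member at -1 or less. Its asynchronous values were 6.93, 6.30 and 8.60 TPM without and 2.46, 2.93 and 2.77 TPM with IAA. It was already apart at 20 min, with 7.27 and 7.03 against 6.42 and 5.43 TPM, and at 40 min, with 5.56 and 5.37 against 4.13 and 3.76 TPM. In +IAA cells its level at 60 min, 3.80 ± 0.15 TPM (SD, n = 2), was below that of mitotic cells, 6.98 ± 0.93 TPM (n = 3).

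Other members high in this order have quite unlike roles. They are Dusp12 (-0.92), a phosphatase, Traf6 (-0.91), a ubiquitin ligase of innate immune signalling, Mrps2 (-0.88), a protein of the small mitochondrial ribosomal subunit, Rab12 (-0.85), a small GTPase of membrane traffic, and Zbtb39 (-0.80), a zinc finger protein. Dennd6b, Comtd1 and Krtcap2 each had a mean of -0.77, and Cdkn2aipnl one of -0.75. Over all 198 members the mean ran from -1.26 to -0.20 with a median of -0.35, and 45 were at -0.5 or less. At the edge of the rule, Mkrn1 at -0.203 and Nt5dc2 at -0.20 were just inside, and Slc25a38 at -0.1999 and Uqcrc1 at -0.199 just outside, so the limit cuts a continuous range.

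Traf6 (chr2:101678429-101701669) was at 0.873 and 0.687 TPM without and 0.356 and 0.353 TPM with IAA at 40 min, 45.5% of the −IAA mean, against 23.6% in asynchronous cells. Dennd6b (chr15:89182213-89196496), which encodes a DENN domain protein acting on Rab GTPases, was at 0.698 and 0.785 against 0.556 and 0.707 TPM at 40 min, still 85.1%. Later it stood at 61.6% (50 min), 39.7% (60 min) and 19.5% (90 min), and at 13.1% in asynchronous cells, where the values were 1.43, 1.15 and 1.92 against 0.118, 0.270 and 0.203 TPM. In Dennd6b the arms overlapped at 20 and 40 min and not at any later stage. They were also apart in mitotic cells, at 0.957, 0.952 and 1.04 TPM without and 0.809, 0.735 and 0.811 TPM with IAA, 80.0% of the −IAA mean.

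**Figure D2:**
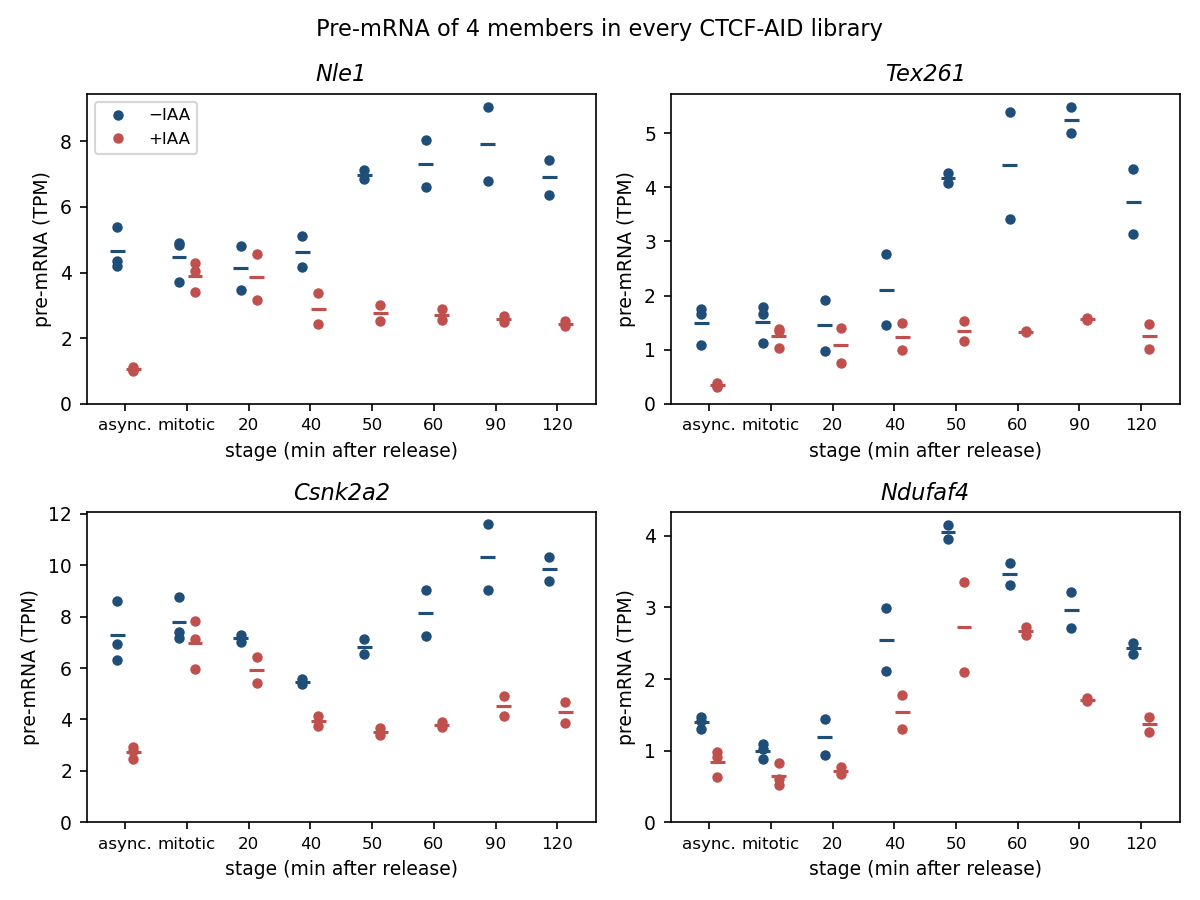
Pre-mRNA level (TPM, vertical axes, starting at 0) of 4 members in each CTCF-AID library, by stage (horizontal axes, minutes after release for the numbered stages). Points are libraries (blue −IAA, red +IAA) and short lines the means of an arm; for Nle1 the arms lie at 4.64 ± 0.66 and 2.90 ± 0.67 TPM at 40 min and at 7.31 ± 1.0 and 2.72 ± 0.23 TPM at 60 min (SD, n = 2).

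Over the whole group, the median difference was below 0 at each stage that the rule did not use. Percentages were taken for genes with a −IAA mean of at least 0.5 TPM at the stage, 180, 181 and 184 members in mitotic cells, at 20 min and at 40 min. The median +IAA level was 90.4%, 85.8% and 79.9% of the −IAA level in these members, and 98.1%, 91.9% and 94.5% in all listed genes above that level. At the stages of the rule, where low values follow from the choice of the members, the members' median was 71.4%, 68.3%, 63.7% and 65.0% for the 50, 60, 90 and 120 min samples in turn, and 62.6% for asynchronous cells. On the log2(TPM + 1) scale the members' median difference was -0.08 in mitotic cells (-0.01 over all listed genes), -0.12 at 20 min (-0.06) and -0.19 at 40 min (-0.05). The median over all listed genes was thus below 0 at 20 and 40 min as well, by less than that of the members. The members' median at 20 min depends on the scaling, as it was -0.068 with libraries scaled to the same total and -0.21 with a pseudocount of 0.1, which also gave -0.14 in mitotic cells and -0.30 at 40 min. With libraries brought to the same step the members' medians were -0.039 in mitotic cells (0.03 over all listed genes), -0.10 at 20 min (-0.05) and -0.16 at 40 min (-0.01). At the stages of the rule the members' median was -0.30, -0.33, -0.41 and -0.37 in the same order and -0.36 in asynchronous cells, with medians over all listed genes between -0.02 and 0.01.

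**Figure D3:**
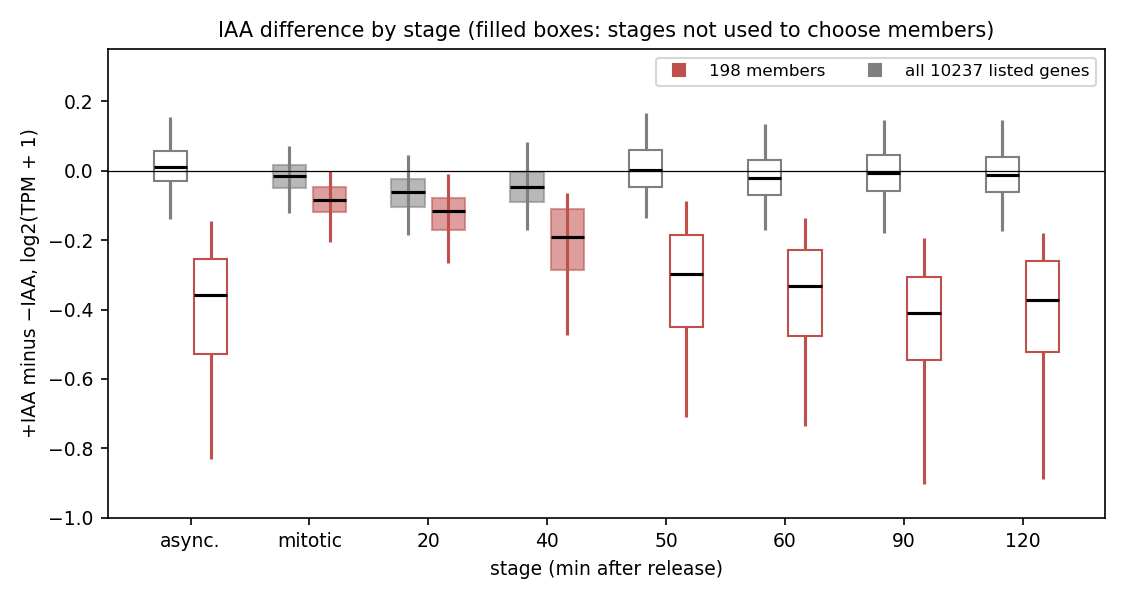
IAA difference, +IAA minus −IAA on the log2(TPM + 1) scale (vertical axis), by stage (horizontal axis), for the 198 members in red and all 10237 listed genes in grey. Boxes span the quartiles with the median as a line and whiskers reach the 5th and 95th percentiles; filled boxes are the stages the rule did not use, where the members' medians are -0.08, -0.12 and -0.19.

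The stage at which a member was highest is given for each arm as a description. Without IAA, 71 members had their highest mean at 50 min (35.9%, against 48.1% of all listed genes), 62 at 90 min (31.3%, against 17.1%) and 1 in mitotic cells (0.505%, against 1.08%). With IAA, 83 were highest at 50 min (41.9%, against 51.2%), 25 at 90 min (12.6%, against 16.2%) and 41 in mitotic cells (20.7%, against 1.89%). These stages include those that chose the members. Nothing is thus read from the contrast between the arms or from that with all listed genes.

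The left-out pairs give the same measure in libraries that the rule did not see, although of the same clone and replicate series. Of the 198 members, 154 (77.8%) were lower with IAA in all 4 pairs of 20 and 40 min, against 36% of all listed genes. In all 3 mitotic pairs 105 (53.0%) were lower, against 19.9%, and in all 7 left-out pairs 79 (39.9%), against 8.48%. With libraries brought to the same step these shares were 57.6% against 5.84%, 25.3% against 5.92% and 16.2% against 0.703%. In the single pairs of 20 min 88.4% and 90.9% of the members were lower, against 86.1% and 65.6% of all listed genes, so that replicate 1 was near the background there. In those of 40 min the shares were 96.5% and 95.5%, against 77.4% and 65.6%. In mitotic cells they were 67.7%, 91.9% and 90.4%, against 47.6%, 69.9% and 66.5%.

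The arms were apart in more members at 40 min than at 20 min. All +IAA libraries lay below all −IAA libraries for 8 members in mitotic cells (4.04%, against 1.48% of all listed genes), for 59 at 20 min (29.8%, against 13.9%) and for 111 at 40 min (56.1%, against 14.5%). Mitotic cells have 3 libraries an arm and the other stages 2, so the shares of mitotic cells and of later stages are not on one footing.

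Single genes were tested with limma on the 14 left-out libraries. Without a replicate block, 0 members and 0% of the listed genes passed an adjusted p of 0.1 with an absolute log2 difference over 0.2, in mitotic cells, at 20 min, at 40 min, over 20 and 40 min together or for that mean minus the mitotic difference. At an unadjusted p under 0.05, 33 members (16.7%, against 0.821% of all listed genes) were lower at 40 min, 48 (24.2%, against 1.13%) over 20 and 40 min, 4 (against 0.352%) at 20 min, 2 (against 0.313%) in mitotic cells and 1 (against 0.147%) for the difference between these stages.

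Replicates with the same number deviated together, and with the replicate as a block the counts differed. At 40 min 39 members fell (19.7%), of 44 listed genes that did (0.430%), and 8 genes rose, no member among them. Over 20 and 40 min together 37 members fell (18.7%), of 41 listed genes (0.401%). The 2 sets shared 32 members and held 44 in all. In mitotic cells, at 20 min and for 20 and 40 min minus mitosis the blocked count was 0 members and 0% of the listed genes. At an unadjusted p under 0.05 the blocked fit gave 120 members lower at 40 min (60.6%, against 6.29%), 144 over 20 and 40 min (72.7%, against 15.9%), 68 at 20 min (34.3%, against 7.02%), 46 in mitotic cells (23.2%, against 2.90%) and 33 for the difference between stages (16.7%, against 2.17%). The blocked calls rest on few libraries. Without replicate 1 or replicate 2, which leaves 1 library an arm at 20 and 40 min, members made up 0 of 0 and 3 of 27 listed genes that passed as lower at 40 min, and without replicate 3, which has mitotic libraries only in this fit, 22 of 27. With libraries scaled to the same total they were 13 of 14 at 40 min, and with all 36 libraries in the fit 1 of 1. With libraries brought to the same step 5 of 6 genes called lower at 40 min were members, Lrrc59, Nle1, Psmd6, Rbm45 and Tchp, and 8 of 8 over 20 and 40 min. An effect that passes at 40 min and not in mitotic cells is not shown to differ between them. The mean over 20 and 40 min minus the mitotic difference gave 0 members. The difference between 40 min alone and mitosis was not tested.

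The 10 members with the lowest blocked difference among those called at 40 min come from many pathways. Lrrc59 (chr11:94629767-94645216), a membrane protein of the endoplasmic reticulum that binds ribosomes, was at 5.32 and 4.54 TPM without and 3.07 and 2.83 TPM with IAA, a difference of -0.58 (SE 0.078, limma adjusted p = 0.0273). Nle1 fell by 0.54 (SE 0.061, limma adjusted p = 0.0162), the smallest adjusted p of the 39. Both genes were also lower in every left-out pair.

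Psmd6 and Polr2c are subunits of large complexes. Psmd6 (ENSMUSG00000021737, chr14:14112174-14120984), part of the regulatory particle of the proteasome, was at 3.45 and 2.80 TPM without and 1.91 and 1.81 TPM with IAA at 40 min, a difference of -0.52 (SE 0.062, limma adjusted p = 0.0173). Polr2c (ENSMUSG00000031783, chr8:94857450-94873535), a core subunit of RNA polymerase II, was at 3.67 and 2.70 against 2.00 and 1.81 TPM (-0.52, SE 0.077, limma adjusted p = 0.0302). Polr2c was also apart at 20 min, with 2.18 and 1.43 against 1.36 and 1.08 TPM. In mitotic cells the arms of both genes overlapped, with +IAA means of 90.5% and 81.8% of the −IAA means.

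Ndufaf4, whose upstream sequence is given above, was apart at every stage, mitosis included. Mitotic −IAA libraries held 1.09, 1.03 and 0.880 TPM and +IAA libraries 0.830, 0.515 and 0.608 TPM, 65.3% of the −IAA mean. At 20 min the values were 1.44 and 0.937 against 0.767 and 0.673 TPM, and at 40 min 2.99 and 2.11 against 1.78 and 1.30 TPM (-0.48, SE 0.079, limma adjusted p = 0.0467 with the block). The +IAA mean stayed between 56.4% and 77.1% of the −IAA mean at all 8 stages. On the log2 scale its difference was -0.28 in mitotic cells and -0.34 at 20 min.

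The other 5 of the 10 were Rbm17 (-0.50, limma adjusted p = 0.0613), a splicing factor, Tchp (-0.48, adjusted p = 0.0293), a protein of the centrosome, Rbm45 (-0.47, adjusted p = 0.0242), an RNA-binding protein, Cab39 (-0.47, adjusted p = 0.0293), a partner of the kinase Stk11, and Ppp2cb (-0.45, adjusted p = 0.0386), a catalytic subunit of phosphatase 2A. In Rbm17 the arms overlapped at 40 min, at 4.69 and 2.43 against 2.67 and 1.66 TPM, and replicate 2 was the lower library in both arms.

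Large differences without a call also occurred. Mrps2 (chr2:28468066-28471178) had the lowest mean of the members over the 4 pairs of 20 and 40 min, -0.59, with 2.01 and 1.20 against 0.934 and 0.420 TPM at 40 min, but its blocked limma adjusted p over both stages was 0.112. Epb41l4aos, an antisense transcript on chr18:33794892-33795986, followed with -0.54 (limma adjusted p = 0.254 with the block) and overlapping arms at 40 min, 25.7 and 18.5 against 18.7 and 9.45 TPM. Next came Lrrc59, Polr2c (-0.42), Ndufaf4 (-0.41), Rbm45, Cab39 (-0.37) and Arl8b (-0.36), a GTPase of lysosome movement.

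At the other end, 4 members were near 0 at 20 and 40 min. They were Cdipt (0.04), which makes phosphatidylinositol, Tdrd12 (0.03), a tudor domain protein of the piRNA pathway, Mthfd1l (-0.02), a mitochondrial enzyme of folate metabolism, and Tert (-0.03), the catalytic subunit of telomerase. Tert was at 1.37 and 1.06 against 1.20 and 1.02 TPM at 40 min, and at 2.01, 1.65 and 2.25 against 1.48, 1.33 and 1.84 TPM in asynchronous cells. Its arms overlapped at both stages. The members' means over 20 and 40 min spanned -0.59 to 0.04 (median -0.16), and those in mitotic cells -0.32 to 0.04 (median -0.08).

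**Figure D4:**
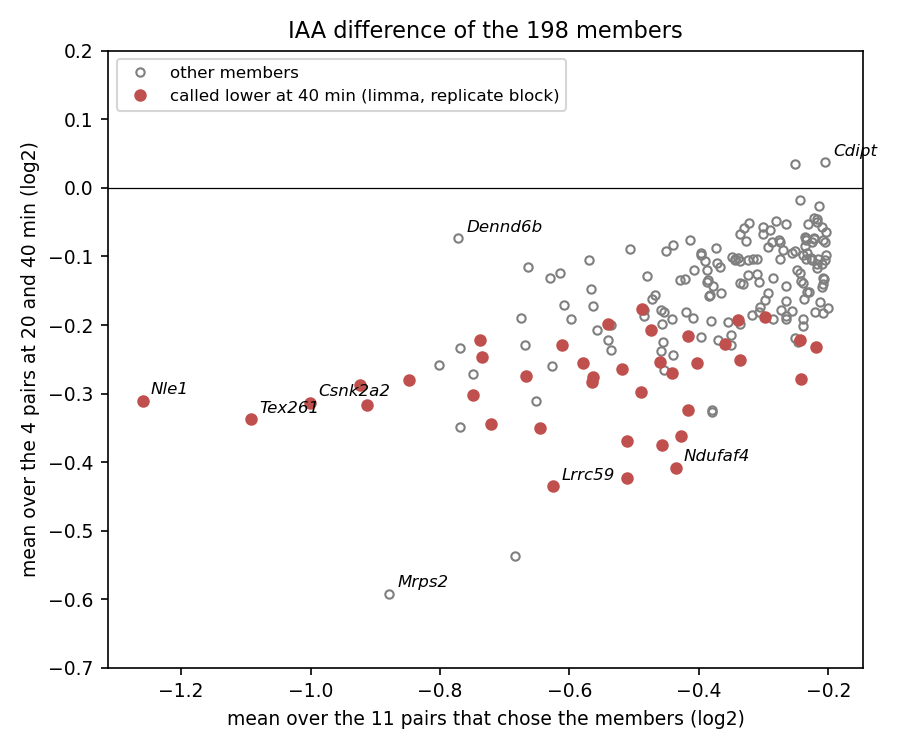
Mean IAA difference of each of the 198 members over the 11 pairs that chose them (log2, horizontal axis) against its mean over the 4 pairs of 20 and 40 min (log2, vertical axis). Red points are the 39 members called at 40 min in the blocked limma fit; the members spread from -0.59 to 0.04 on the vertical axis.

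Members with a larger difference at the stages of the rule also tended to have a larger one in the left-out pairs. Spearman's rho across the 198 members was 0.601 between the mean of the 11 pairs and that of 20 and 40 min, and 0.527 between the mean of the 11 pairs and that of mitotic cells. Across all listed genes the values were 0.197 and 0.000565. Genes are not independent replicates, and all stages share the clone, the replicate numbers and the scaling of TPM. A gene at a low level also moves little on the log2(TPM + 1) scale, and the part of level was not tested. These values thus only describe the genes.

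A few genes that were called lower in the left-out libraries were not members. At 40 min they were 6330403K07Rik, Cul5, Limd2, Parl and Ric8a, and over 20 and 40 min Arf5, Ltb4r1, Med4 and Nus1. Limd2 had a difference of -0.41 at 40 min (limma adjusted p = 0.0293 with the block) but a mean of 0.16 over the 11 pairs, and Ric8a one of -0.49 against 0.08. Cul5, a scaffold of ubiquitin ligases, was lower in all 11 pairs with a mean of -0.17, and thus missed the members by size only.

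By function, the members were spread over many lists, and no list held more than 11 of them. Of the 198 members 62 were in any of 16 lists made from gene names, and 136 in none. The share of members was 5.43% in the respiratory chain (5 of 92 listed genes), 4.30% in ribosome and translation (11 of 256) and 3.76% in splicing and RNA processing (7 of 186), beside 1.93% of all listed genes. The lists of pluripotency factors (20 genes), cohesin and chromosome folding (18 genes) and clustered or imprinted loci (20 genes) held 0 members.

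Calls within the lists are those of the blocked limma fit at 40 min, while the fit without the block called 0. The blocked fit called 0.430% of all listed genes lower, 39 of the 44 being members. With libraries brought to the same step it called 5 members, of which Rbm45, Nle1 and Psmd6 are in these lists. Ndufaf4 was not among them, but passed over 20 and 40 min together with the same step (-0.38, limma adjusted p = 0.0788 with the block). In the list of splicing and RNA processing 5 of 186 genes fell and 0 rose, with Rbm45 the only one called with the same step. The members lowest over the 11 pairs were Rbm17 (-0.72), Rbm45 (-0.46) and Ddx46, an RNA helicase of the early spliceosome. The median of the 7 members over 20 and 40 min was -0.27, and that of the whole list -0.07.

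In ribosome and translation 1 of 256 genes fell at 40 min and 0 rose. Its members include Mrps2 and Mrpl23 of the mitochondrial ribosome and Rpl36 of the cytosolic one. The values of cytosolic ribosomal protein genes are to be read with care. Near-identical copies in the genome can share their reads, which was not tested here. In ribosome biogenesis and exosome Nle1 was the only member and the only gene called, of 49.

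In the respiratory chain 1 of 92 genes, Ndufaf4, fell and 0 rose. Ndufab1, the acyl carrier protein of complex I, and Ndufb7, an accessory subunit of complex I, were also members, with the median of the 5 members at -0.23 over 20 and 40 min and that of the list at -0.07.

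Vesicle traffic and cytoskeleton held 7 members of 291, and 3 listed genes fell and 1 rose. Rab12, Dync1li2, a light intermediate chain of dynein, and Vps36 of the ESCRT machinery led its members. Membrane transport held 6 of 401, led by Tmem136, Slc35b2, which carries the sulfate donor into the Golgi, and Slc48a1, a heme carrier, and 1 gene fell. Ubiquitin and proteasome held 3 of 275, Psmd6, Rnf214 and Rnf215, and 2 genes fell. In each of these lists the share of members, between 1.09% and 2.41%, was near that of all listed genes.

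Zinc finger factors held 6 members of 339 (1.77%), with Zbtb39, Zfp398 and Zfp341 lowest, and 1 gene fell. Chromatin enzymes held 3 of 104: Kdm1a, a histone demethylase, Smarcc2, a subunit of the BAF remodelling complex, and Katnbl1, which the name pattern caught and which is no chromatin enzyme. Kdm1a was at 4.80, 3.74 and 5.74 against 3.82, 3.20 and 4.19 TPM in asynchronous cells, in overlapping ranges. Cell cycle held 1 of 122, Cdkn2aipnl, also by its name only, DNA repair and replication 1 of 96, Msh3, a mismatch repair protein, and chaperones 1 of 61, Dnajc11. Noncoding and unnamed genes held 10 of 442, led by 1700109H08Rik, 1700021F05Rik and E130309D02Rik, none of which was called, and in the whole list 1 gene fell and 1 rose.

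Members were neither high nor long genes as a group. Their median level in asynchronous −IAA cells was 1.66 TPM (quartiles 1.06 and 2.88 TPM), beside 1.54 TPM over all listed genes, and their median gene length 22.7 kb beside 22.5 kb. A member at 1 TPM or less moves little on the log2(TPM + 1) scale, which understates its change. Of the 198, 191 were protein coding, and they lay on 20 chromosomes, from 2 to 19 on each.

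In 8 cases the next listed gene after a member was another member (4.04% of the members, where 1.93% of all listed genes are members). Zfp398, Zfp282 and Zfp212, zinc finger genes in a row on chr6:47835661-47932639, had means of -0.58, -0.27 and -0.21. Zfp398 was at 1.30, 1.04 and 1.45 against 0.453, 0.463 and 0.645 TPM in asynchronous cells, and Zfp212 at 1.30, 0.956 and 1.30 against 0.984, 0.867 and 1.01 TPM. The first was thus apart between the arms, and the last was not.

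The other neighbours were Slc25a22 and Pidd1, whose starts lie 6133 bp apart on one strand of chromosome 7, Fam133b and 1700109H08Rik (27733 bp), Car13 and Car2 (244546 bp), Nomo1 and Saal1 (676982 bp), Api5 and Traf6 (7240293 bp) and 6820431F20Rik and 2610005L07Rik (127382 bp). Car13 and Car2 encode carbonic anhydrases. Car2 varied widely between replicates, at 1.51, 8.65 and 1.87 TPM without and 0.708, 5.51 and 0.830 TPM with IAA in asynchronous cells, and was lower within each pair.

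Some members form a pair with another listed gene at a shared promoter. These pairs were chosen for their position, after values were seen. In 8 cases a member and another listed gene started back to back within 1000 bp. In 0 of them was the partner a member, where 1.93% of all listed genes are members. So few pairs cannot tell 0 from that share. At 20 and 40 min, which the rule did not use, all 8 partners were below 0, as were 86.0% of all listed genes, with a median of -0.07 beside -0.05 over all listed genes, and the 8 members had a median of -0.19. Over the 11 pairs the partners' median was 0.01 and that of the members -0.39, a gap that follows from the choice of the members. Polr3a, a subunit of RNA polymerase III, had a mean of -0.46 over the 11 pairs. Its partner Rps24, a ribosomal protein gene that starts 67 bp away, had one of 0.26, the highest of the 8 partners. The lowest was Med20, partner of Bysl, at -0.15. At 20 and 40 min both were below 0, Polr3a at -0.20 and Rps24 at -0.07. Only Exosc8, partner of Alg5, was lower in all 11 pairs, with a mean of -0.15 that did not reach the limit.

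The course of the members in cells without IAA or the degron was taken from CCNA-GFP, where 194 of them were listed. The direction over the group depended on the scaling. With the replicate as a block and TPM as deposited, 63 members (32.5%, against 49.3% of all listed genes) rose from mitosis by 40 min at a limma adjusted p of 0.05, 174 (89.7%, against 88.3%) by 60 min and 144 (74.2%, against 70.4%) in asynchronous cells. The median differences from mitosis were 0.18, 0.70 and 0.33 for the members and 0.26, 0.79 and 0.33 over all listed genes. At 60 min and in asynchronous cells the share of members that rose was close to the background, and at 40 min it was below it. By 40, 60 min and in asynchronous cells 0, 1 and 3 members fell, against 0.0404%, 0.515% and 1.97% of all listed genes. The count at 40 min was 19 without the block and 22 without replicate 1, with 23.8% and 26.4% of all listed genes.

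With CCNA-GFP libraries scaled to the same total, the median over all listed genes went to -0.05 at 40 min, 0.02 at 60 min and 0.03 in asynchronous cells, and that of the members to -0.15, -0.12 and 0.05. Then 13, 40 and 57 of the 194 members rose (against 23.7%, 36.4% and 24.8% of all listed genes). Of the same 194, 82, 88 and 44 fell (against 31.3%, 33.3% and 20.3%). The share of members that rose lay below that of all listed genes at 40 and 60 min, and above it in asynchronous cells. With libraries brought to the same step, 103 of the 194 members rose by 40 min, a smaller share than the 64.4% of all listed genes. The members' median was 0.33 beside 0.40 over all listed genes. By 60 min 143 of the 194 rose, again a smaller share than the 79.6% of all listed genes, with a median of 0.56 beside 0.66. In asynchronous cells 168 of the 194 rose, a larger share than the 81.7% of all listed genes, with a median of 0.47 beside 0.46. Under all 3 scalings the members' median lay below that of all listed genes at 40 and 60 min.

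Ndufaf4, Mrps2 and Crls1, the cardiolipin synthase, rose most by 60 min. Ndufaf4 was at 0.453, 0.399 and 0.562 TPM in mitotic cells and at 4.41 and 3.15 TPM at 60 min, a difference of 1.73 (SE 0.13, limma adjusted p = 3.17e-10). Mrps2 was at 0.557, 0.565 and 0.253 TPM and then at 4.79 and 2.58 TPM (1.68, SE 0.17, limma adjusted p = 1.01e-08). Crls1 was higher by 1.67 (limma adjusted p = 2.19e-10). No mitotic library of Ndufaf4 or Mrps2 reached any library at 60 min, and with the same total the differences were 0.99, 0.92 and 0.84 for Ndufaf4, Mrps2 and Crls1.

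Tdrd12 was the only member that fell by 60 min in TPM as deposited, from 1.88, 1.83 and 2.31 TPM to 1.14 and 1.24 TPM (-0.33, SE 0.12, limma adjusted p = 0.0168). Ocrl, a phosphoinositide phosphatase, at -0.11 (limma adjusted p = 0.109), and Tbc1d9b, a protein with a Rab GTPase-activating domain, at -0.10 (adjusted p = 0.127) were next and did not pass. With the same total Tdrd12, Ocrl and Tbc1d9b fell by 1.18, 0.45 and 0.47 on the log2 scale (limma adjusted p = 9.73e-07, 6.59e-06 and 7.08e-06). The highest mean of a member fell at 90 min in 88 of the 194 (45.4%, against 37.1% of all listed genes), in 31 at 50 min (16.0%, against 21.7%) and in 27 at 60 min (13.9%, against 23.0%). Values at 50 min come from 1 library.

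**Figure D5:**
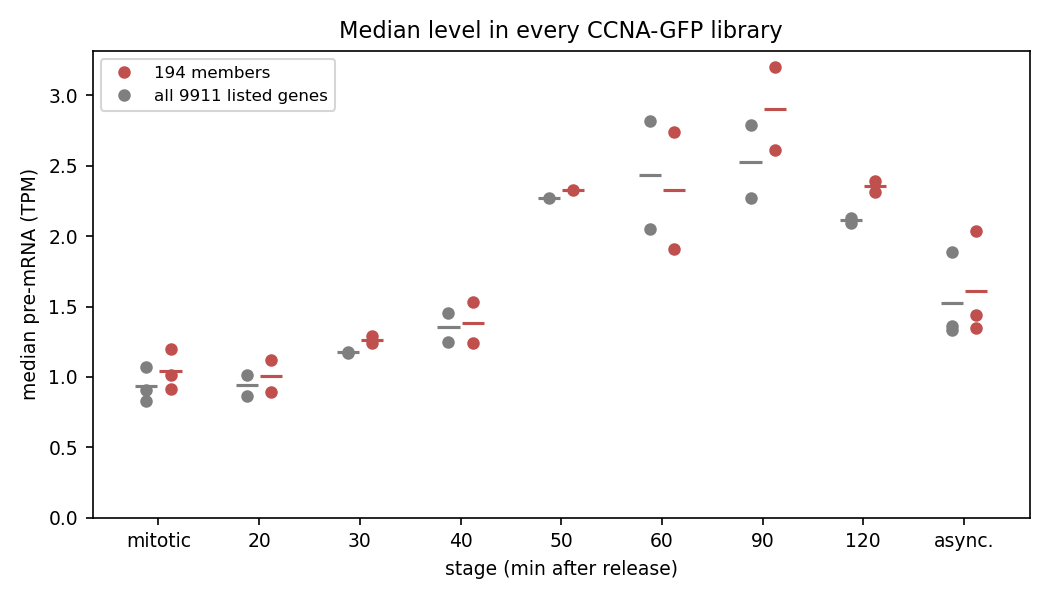
Median pre-mRNA level (TPM, vertical axis, starting at 0) of the members (red) and of all listed genes (grey) in each CCNA-GFP library, by stage (horizontal axis, minutes after release for the numbered stages). Points are libraries and short lines their means; the members' medians are 0.913 to 1.19 TPM in mitotic and 1.91 to 2.74 TPM in the 60 min libraries.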

How the data were processed

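Pre-mRNA was measured in 36 CTCF-AID and 19 CCNA-GFP libraries. Per the paper's methods, the authors sequenced paired ends of stranded RNA freed of ribosomal RNA. STAR placed the reads on mm10, and RSEM estimated levels for Gencode vM12, to which a pre-mRNA isoform per gene had been added (tool versions are not given in the sources used here). The values the authors deposited are TPM of that isoform, all whole multiples of a step that differs between libraries and is not stated in the methods, for genes above 0.5 TPM in asynchronous cells or at least 2 later samples. TPM keep no counts, so the precision was judged from replicates only. Headers of the asynchronous CTCF-AID columns are garbled in their stage name and were read with the help of the column names in the paper's supplementary dataset. No column was left unmapped (0 in all).

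Differences are +IAA minus −IAA of log2(TPM + 1). Single genes were tested with limma 3.58.1 (lmFit, eBayes with a trend, R 4.3.3), with Benjamini-Hochberg adjustment over all listed genes. The IAA fit held the 14 mitotic, 20 and 40 min libraries of CTCF-AID, had no block, and called genes below an adjusted p of 0.1 when the absolute difference passed 0.2. The CCNA-GFP fit held 19 libraries, with the replicate as a block and an adjusted p of 0.05. The methods speak of independent replicates, and deviations of same-numbered libraries of the 2 arms from their group means correlated above 0.1 in 18 of 18 pairs (r from 0.513 to 0.884, median 0.793; at stages with 2 replicates both values are equal by construction), so the numbers pair the libraries and blocked values are given where they differ. The fits were tested on simulated data. Descriptions used Python 3.11.15, numpy 2.4.6, pandas 2.3.3 and matplotlib 3.10.9.

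The members and all lists were chosen with earlier results of these data known. Named genes are Ctcf; the 12 members lowest over the 11 pairs; the 2 nearest the limit on either side; at 20 and 40 min the 8 lowest that were lower in all 4 pairs and the 4 highest; the 10 lowest called per comparison; the 3 lowest of each list; 10 members with the strict CTCF core; adjacent members; and the 3 highest and 3 lowest in CCNA-GFP at 60 min. Genes that share a start region and called genes outside the members were added after their values were seen. Gene positions are from the Gencode annotation on GRCm38, the assembly that mm10 names, promoters from RefSeq GRCm38.p6. Alternatives were a pseudocount of 0.1, libraries scaled to the same total or, chosen after seeing the data, to the same step, only genes averaging 1 TPM or more, all 36 libraries in 1 fit, the replicate block and leaving out each replicate.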

Additional observations from a re-analysis of the deposited data

How the results depend on the processing

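The members' median differences kept their sign under every alternative run. With a pseudocount of 0.1 they were larger, at -0.14 in mitotic cells, -0.21 at 20 min and -0.30 at 40 min. With libraries scaled to the same total they were -0.068 at 20 min and -0.15 at 40 min, and with only genes averaging 1 TPM or more -0.22 at 40 min. With libraries brought to the same step, also chosen after seeing the data, they were -0.039 in mitotic cells and -0.16 at 40 min. Leaving out each replicate gave -0.11 to -0.07 in mitotic cells, -0.14 to -0.11 at 20 min and -0.21 to -0.17 at 40 min.

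Without a block, limma called 0 members in all 5 IAA comparisons under each of the other settings. With the replicate block it called 39 at 40 min and 37 over 20 and 40 min. Alternatives with the block were chosen after seeing the data. For 40 min and for both stages together members among the genes called lower were 27 of 27 and 39 of 42 with a pseudocount of 0.1, 13 of 14 and 18 of 19 with the same total, 5 of 6 and 8 of 8 with the same step, 34 of 38 and 38 of 52 with only genes averaging 1 TPM or more, 1 of 1 and 11 of 11 with all 36 libraries, 0 of 0 and 0 of 0 without replicate 1, 3 of 27 and 5 of 24 without replicate 2, and 22 of 27 and 30 of 32 without replicate 3. A lone library left at a stage was assumed to vary like the other groups. In mitotic cells, at 20 min and for the difference between stages every setting gave 0, so the block changed no other call. The cause of these differences was not tested.

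In CCNA-GFP, members that rose numbered, of 194 listed, 13 at 40 min, 40 at 60 min and 57 in asynchronous cells with the same total. With the same step they numbered 103, 143 and 168 in the same order, and without the replicate block 19 at 40 min. Leaving out each replicate gave 22 to 52, 132 to 177 and 105 to 149, with 26.4% to 42.2%, 75.5% to 88.3% and 47.0% to 67.8% of all listed genes. The rule itself took 265 genes with a pseudocount of 0.1 (198 shared), 186 with the same total (184 shared), 143 with the same step (143 shared) and 188 to 235 with 1 replicate left out. The relaxed core raised the members with a match from 19 to 74. TPM hold no counts, so the depth behind a value is unknown.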
